A study of Mus musculus with 6 samples.

Results

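The genes described here encode the subunits of the mitochondrial complexes of oxidative phosphorylation, together with a few of their assembly factors, in the luminal epithelium of the mouse uterus. They were chosen by gene symbol alone, with a pattern that takes the families Nduf, Sdha to Sdhd, Uqcr, Cox4 to Cox8 where a letter a, b or c follows, and Atp5, and so leaves out genes such as Cox4i1 and Cyc1. The pattern found 86 symbols on 114 rows of the deposited table, out of 21740 genes measured, and 66 of the 86 were represented by 1 row. The luminal epithelium lines the uterine cavity, and the embryo attaches to it at implantation. It was compared between gestation day 3.5 (D3.5, wild-type mice before implantation, blastocysts found in the uterus) and gestation day 4.5 (D4.5, wild-type mice after implantation, implantation sites found), with 3 one-colour Affymetrix arrays a day. Where a symbol has several rows, the deposited table does not pair them between the days, so the mean of a symbol's rows was used.

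All mice were naturally mated virgin females, 2 to 4 months old, on a mixed C57BL6 and 129svj background. The epithelium was peeled off with 0.5% dispase and gentle scraping, and 1 µg of total RNA was labelled per array. Whether each array stands for its own animal is not stated in the labels, and the p-values therefore measure no more than the spread among these 6 samples, part of which may be technical. Pairs of D3.5 arrays shared 356 to 1092 exactly equal values in the deposited table and pairs of D4.5 arrays 5 to 24; what this means for the independence of the D3.5 arrays was not tested. Levels are log2(intensity + 16) after quantile normalization, given array by array, in the order of replicates 1, 2 and 3, or as mean ± SD (n = 3). Changes are D4.5 minus D3.5 on that log2 scale ± SE, and adjusted p-values come from limma over all 21740 genes. A gene is said to have risen or fallen where that adjusted p was under 0.05. As a guide to low signal, a level is called receptor level where it did not exceed the 95th percentile of 1325 chemosensory receptor genes, which this tissue is not known to use (6.55 on D3.5 and 6.37 on D4.5).

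Oxidative phosphorylation makes ATP in the inner mitochondrial membrane. Complexes I and II pass electrons from NADH and succinate to ubiquinone, complex III passes them on to cytochrome c, and complex IV hands them to oxygen. Complexes I, III and IV pump protons as they do so, and complex V, the ATP synthase, lets the protons flow back through a rotating ring to drive ATP synthesis. Most subunits are encoded in the nucleus and imported, a few core subunits of complexes I, III, IV and V are encoded in mitochondrial DNA, and several nuclear subunits exist as isoforms used in muscle or testis. The luminal epithelium is a secretory and absorptive cell layer that depends on ATP-driven ion and nutrient transport.

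Of the 86 genes, 16 rose, 25 fell and 45 did not pass the test. Of all 21740 genes 18.0% rose and 26.4% fell, 44.4% in all, so that the number that passed was close to the background of this comparison. The median change of the 86 was -0.05, beside -0.07 over all genes, and single changes ran from -1.20 (Cox7a2l) to 0.98 (Atp5sl). Changes of 2-fold or more with an adjusted p under 0.05 were found for 2 of the 86, Cox7a2l and Ndufc2, both lower on D4.5, beside 5.50% of all genes. The genes thus moved both ways: within complex I the changes spanned 1.83 on the log2 scale, within complex IV 1.41, and within complex V 1.26. Single genes set the ends of these spans. The upper end in complex I was Ndufa9, which did not pass, and the lower end in complex IV was Cox7a2l. The 10 general subunits of complex IV spanned 0.53. Spans over all genes were not computed.

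**Figure D1:**
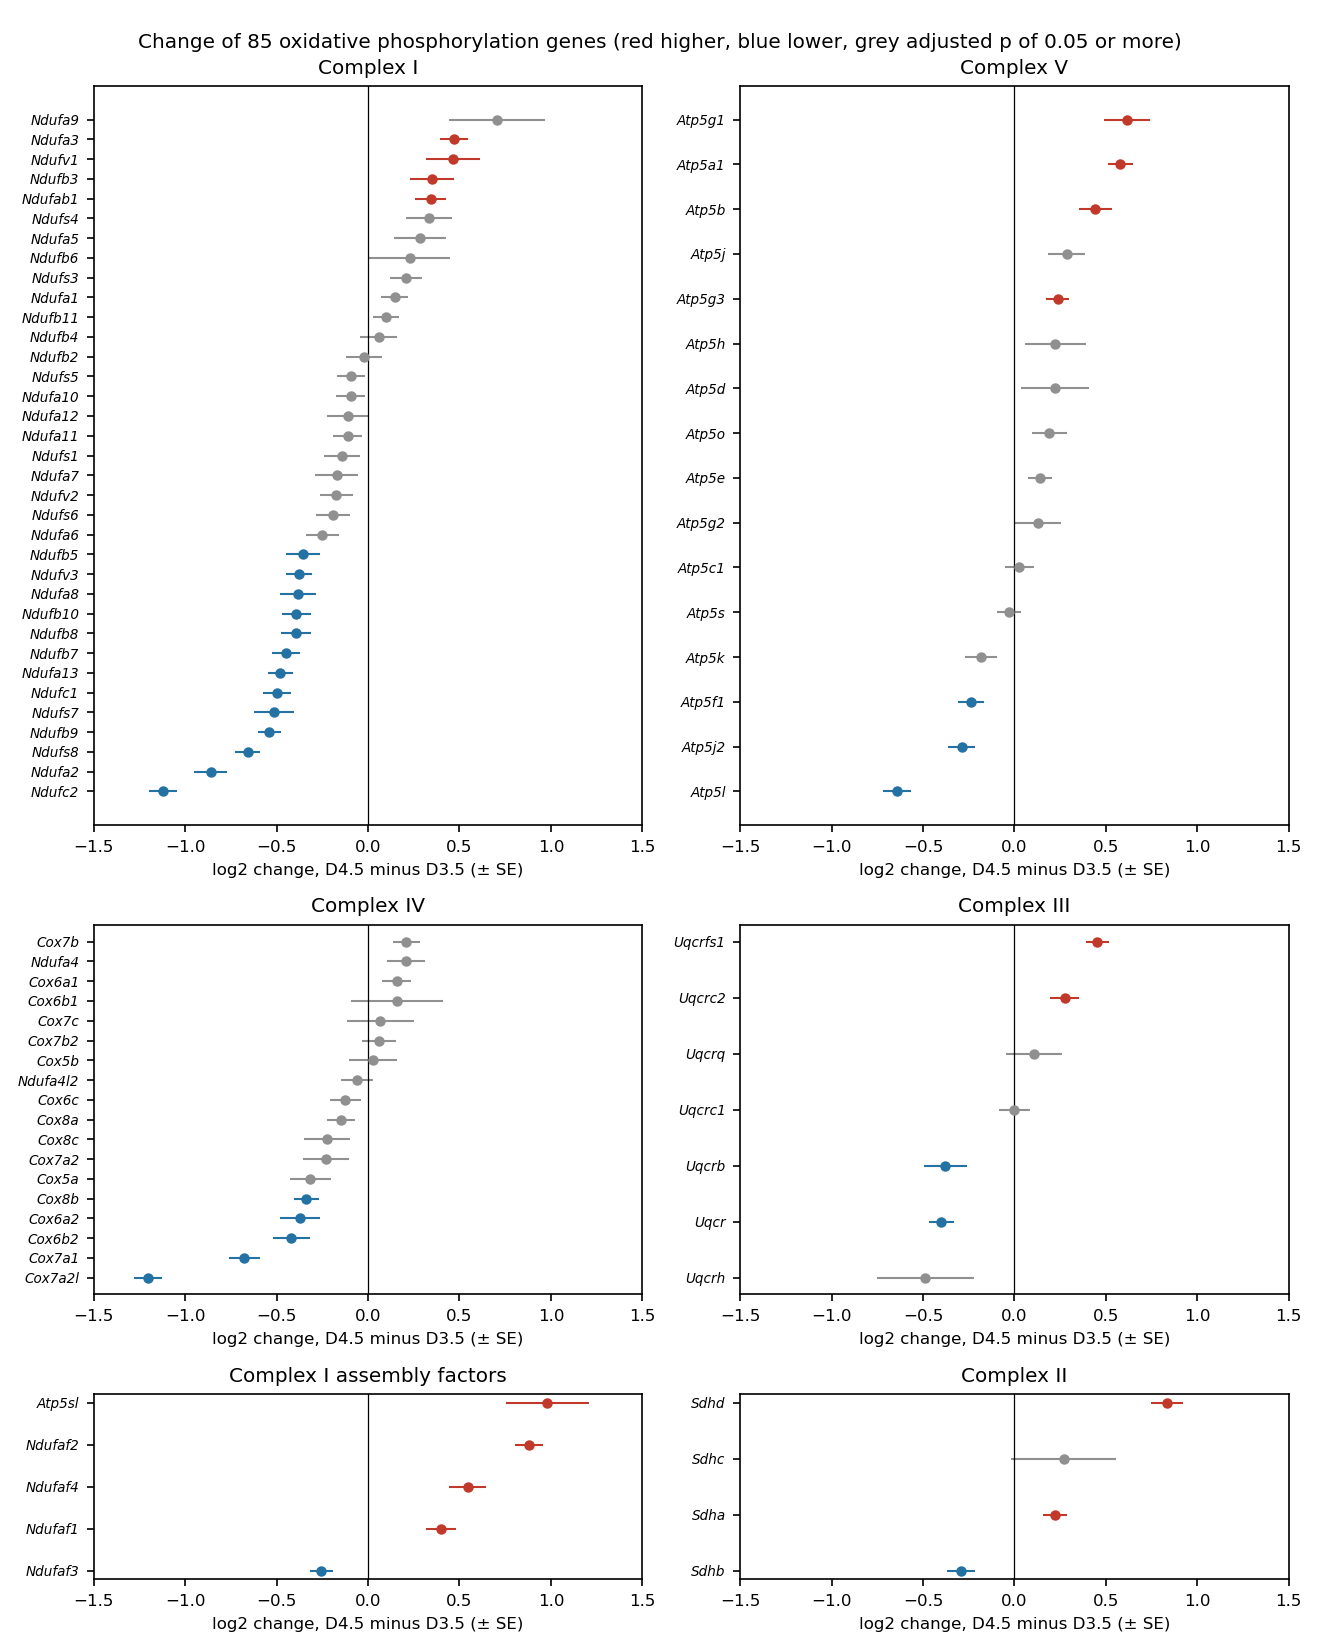
Log2 change (D4.5 minus D3.5, horizontal axis) of 85 of the 86 genes in 6 panels, with bars for the SE from limma. Red points rose, blue points fell and grey points did not pass. Complex I, with 36 of the 86 genes, holds 13 of the 25 falls. Of the 5 assembly factors of complex I that the symbol pattern takes in, 4 lie among the rises.

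The direction of small changes depended on how the arrays were scaled. When array medians were aligned in place of full quantile normalization, the median change of the 86 genes became 0.27, with 32 higher (28.0% of all genes) and 9 lower (19.6%). In the intensities as deposited it was -0.16, with 12 higher (11.4%) and 34 lower (61.8%), and the median of all genes itself lay at -0.40 in place of -0.07 (0.02 with aligned medians). The deposited arrays had median intensities between 108.6 and 118.4 for D3.5 but between 78.9 and 80.2 for D4.5. From these files gestation day cannot be told apart from a difference in how the arrays of each day were handled. For 30 of the 86 genes the sign of the change was not the same under all 3 scalings. Passing in 1 direction under all 3 were 11 rises (Sdhd, Sdha, Ndufaf2, Atp5sl, Ndufa3, Ndufab1, Uqcrfs1, Atp5a1, Atp5b, Atp5g1 and Atp5g3) and 9 falls (Cox7a2l, Cox7a1, Cox6b2, Cox8b, Ndufc2, Ndufa2, Ndufb7, Ndufb10 and Atp5l). Of all genes 11.0% were called higher and 17.8% lower under all 3 scalings. The 3 scalings are not separate checks. Aligning medians only shifts whole arrays, so each gene's change differs from that in the deposited intensities by the same amount. A fall with aligned medians is therefore a larger fall as deposited, and a rise as deposited is a larger rise with aligned medians. In the account below a change that passed is marked where another scaling turned it or took it out of significance. Changes that did not pass carry no such mark, and some of them change sign or pass under another scaling.

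**Figure D2:**
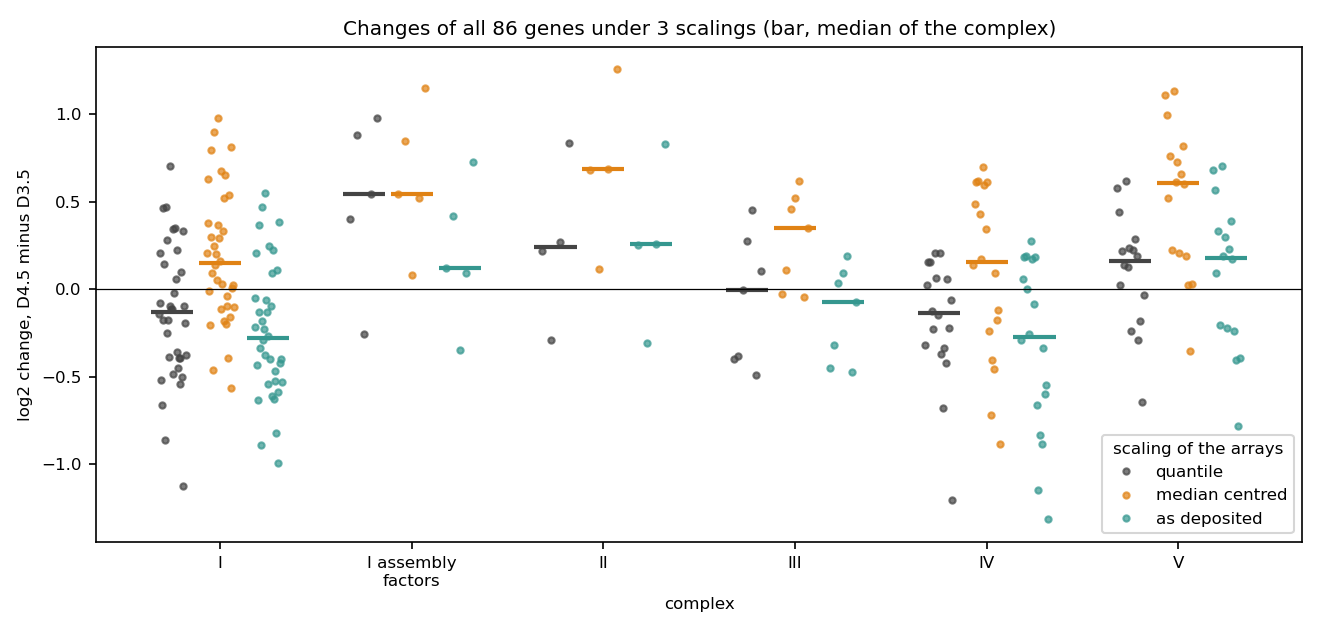
Log2 change of the 86 genes (1 point each) by complex under quantile normalization, aligned medians and the intensities as deposited, with a bar at the median of each complex. Aligned medians moved the median of the whole set from -0.05 to 0.27 and to -0.16 in the intensities as deposited.

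Complex I, the NADH dehydrogenase, had 36 measured genes, of which 4 rose, 13 fell and 19 did not pass (11 higher and 4 lower with aligned medians, 2 and 18 in the intensities as deposited). Counts per complex, here and below, stand beside 18.0% of all genes that rose and 26.4% that fell. With aligned medians these shares were 28.0% and 19.6%, and in the intensities as deposited 11.4% and 61.8%. Ndufc2, an accessory subunit of the membrane arm, stood at 11.93, 11.80 and 12.02 on the D3.5 arrays and at 10.80, 10.79 and 10.79 on the D4.5 arrays. The days were far apart relative to their spread, and the level fell 2.18-fold (-1.12 ± 0.08, adjusted p = 6.38e-05). Ndufa2, an accessory subunit near the NADH-oxidising tip, measured 9.01, 9.29 and 9.20 on D3.5 against 8.25, 8.38 and 8.29 on D4.5. All 3 of its D4.5 values lay below all 3 of its D3.5 values (-0.86 ± 0.09, adjusted p = 0.000393).

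The 7 core subunits include the carriers of the flavin and of the iron-sulphur clusters. Of these Ndufs8 and Ndufs7, which hold the last iron-sulphur clusters before ubiquinone, fell. Ndufs8 read 9.70, 9.69 and 9.62 on D3.5 and 8.96, 9.08 and 9.00 on D4.5 (-0.66 ± 0.07, adjusted p = 0.000361), and Ndufs7 changed by -0.52 ± 0.11 (adjusted p = 0.00783). With aligned medians neither passed (-0.20 and -0.01). Ndufv1, the flavoprotein that binds NADH, rose by 0.46 ± 0.15 (adjusted p = 0.0389), from 7.74, 8.35 and 8.18 to 8.52, 8.65 and 8.50, and did not pass in the intensities as deposited. Ndufs1, Ndufs3 and Ndufv2 changed by between -0.17 and 0.21 and did not pass.

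Among the 29 accessory subunits, 3 rose and 11 fell. The Ndufb family, which builds the distal part of the membrane arm, contributed 5 of these falls among its 10 measured members. Ndufb9 showed the largest of them, from 9.39, 9.41 and 9.40 to 8.82, 8.92 and 8.85 (-0.54 ± 0.06, adjusted p = 0.00065, but -0.10 and no call with aligned medians). Ndufb7 (-0.45 ± 0.08), Ndufb8 (-0.39 ± 0.08), Ndufb10 (-0.39 ± 0.08) and Ndufb5 (-0.36 ± 0.09) followed, of which Ndufb7 and Ndufb10 passed under all 3 scalings. Ndufb3 went the other way (0.35 ± 0.12, adjusted p = 0.0464), from a D3.5 level no higher than that of receptor genes, and its call was lost in the intensities as deposited and without D3.5 replicate 1. Ndufb2, Ndufb4, Ndufb6 and Ndufb11 did not pass. The level of Ndufb5 averages 2 unlike rows, the lower near the receptor level. On D3.5 they lay at 6.55 to 6.87 and at 8.71 to 9.02, and on D4.5 at 6.34 to 6.52 and at 8.34 to 8.47.

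Outside that family, Ndufc1 (-0.50 ± 0.08), Ndufa13 (-0.48 ± 0.07), Ndufa8 (-0.38 ± 0.10) and Ndufv3 (-0.38 ± 0.07) also fell. None of these 4 passed with aligned medians. Ndufa3 rose from 8.64, 8.62 and 8.67 to 8.99, 9.16 and 9.19 (0.47 ± 0.08, adjusted p = 0.00255), and Ndufab1, the mitochondrial acyl carrier protein, which also serves fatty acid synthesis, rose by 0.34 ± 0.08. Both passed under all 3 scalings. The remaining 11 accessory subunits outside the Ndufb family lay between -0.25 and 0.70 and did not pass.

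Assembly factors of complex I help to build it and are not part of the finished enzyme. Of the 5 that the symbol pattern takes in, 4 were higher and 1 was lower (4 and 0 with aligned medians, 2 and 1 as deposited). Of others that it leaves out, Ecsit (0.48 ± 0.09) and Foxred1 (0.26 ± 0.09) rose, both without a call in the intensities as deposited. Nubpl (0.19 ± 0.10), Acad9 (-0.17 ± 0.09) and Tmem126b (-0.20 ± 0.13) did not pass. Ndufaf2 stood at 5.78, 5.95 and 5.95 on D3.5, at the receptor level, and at 6.73, 6.82 and 6.78 on D4.5. Its days did not overlap (0.88 ± 0.07, 1.84-fold, adjusted p = 0.000152), and the change was 0.42 in the intensities as deposited. Atp5sl, named after a subunit of the ATP synthase but now called Dmac2 after its part in assembling the distal membrane arm, rose 1.97-fold. Its values were 6.52, 7.41 and 7.30 on D3.5 and 7.96, 8.26 and 7.95 on D4.5 (0.98 ± 0.23, adjusted p = 0.0112). D3.5 replicate 1 was the low array here, and without it the change was 0.70. Ndufaf4 (0.55 ± 0.10, also at the receptor level on D3.5) and Ndufaf1 (0.40 ± 0.08) rose as well, both without a call in the intensities as deposited, and Ndufaf3 fell (-0.26 ± 0.06), without a call with aligned medians (0.08).

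Complex II, succinate dehydrogenase, belongs to the citric acid cycle as well as to the respiratory chain and is encoded entirely in the nucleus. Its subunits divided. Sdhd, a membrane anchor that helps to form the ubiquinone site, stood at 8.45, 8.70 and 8.53 on D3.5, and its D4.5 levels were 9.37, 9.35 and 9.47. This 1.78-fold rise (0.83 ± 0.08, adjusted p = 0.00034) was the largest rise among the structural subunits of the 86 genes that passed. Sdha, the flavoprotein that oxidises succinate, rose slightly (0.22 ± 0.07, adjusted p = 0.0297), from 9.15, 9.20 and 9.25 to 9.38, 9.46 and 9.42, and the iron-sulphur subunit Sdhb fell (-0.29 ± 0.08, adjusted p = 0.0196, but 0.12 with aligned medians). The call of Sdha was lost in 5 of the 6 fits that left out 1 array, and that of Sdhb in 3. The second anchor, Sdhc, read 8.25 on D3.5 replicate 1 and 9.39 and 9.38 on the other D3.5 arrays, beside 9.15 to 9.35 on D4.5. Its change did not pass (0.27 ± 0.29) and was -0.11 without that array.

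The promoter window of Sdhd is shown with those of the genes Atp5g1, Atp5g2 and Atp5g3, whose results follow below, and of Cox7a2l. Among the 86 genes Sdhd had the largest rise of a structural subunit and Cox7a2l the largest fall. The Atp5g genes are a set of 3 paralogues of which 2 passed. The windows are RefSeq sequence of build GRCm38.p6, 250 bases before to 50 bases after the annotated start, read on the strand of the gene. They lie at chr9:50603800-50604099, minus strand (Sdhd), chr11:96075582-96075881, minus strand (Atp5g1), chr15:102670998-102671297, minus strand (Atp5g2), chr2:73911277-73911576, minus strand (Atp5g3) and chr17:83514284-83514583, minus strand (Cox7a2l). Capitals mark matches, read on either strand and so at times as the reverse complement, to a core of the palindromic binding motif of NRF1 with its middle base left free, to CCGGAAG, a core of the motif of ETS factors such as GABPA, or to AAGATGGCG, a core of the motif of YY1, factors known to bind promoters of respiratory chain genes.
Sdhd: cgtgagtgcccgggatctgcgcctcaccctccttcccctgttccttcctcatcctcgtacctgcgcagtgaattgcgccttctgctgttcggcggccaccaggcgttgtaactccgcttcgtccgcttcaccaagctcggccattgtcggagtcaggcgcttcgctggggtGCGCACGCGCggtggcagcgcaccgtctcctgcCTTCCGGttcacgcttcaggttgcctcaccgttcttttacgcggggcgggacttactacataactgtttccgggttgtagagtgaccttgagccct
Atp5g1: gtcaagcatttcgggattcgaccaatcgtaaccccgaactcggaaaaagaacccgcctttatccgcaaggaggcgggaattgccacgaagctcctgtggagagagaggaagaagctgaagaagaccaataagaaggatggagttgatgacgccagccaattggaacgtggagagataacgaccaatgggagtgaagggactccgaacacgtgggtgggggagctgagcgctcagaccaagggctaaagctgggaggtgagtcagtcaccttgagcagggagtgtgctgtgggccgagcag
Atp5g2: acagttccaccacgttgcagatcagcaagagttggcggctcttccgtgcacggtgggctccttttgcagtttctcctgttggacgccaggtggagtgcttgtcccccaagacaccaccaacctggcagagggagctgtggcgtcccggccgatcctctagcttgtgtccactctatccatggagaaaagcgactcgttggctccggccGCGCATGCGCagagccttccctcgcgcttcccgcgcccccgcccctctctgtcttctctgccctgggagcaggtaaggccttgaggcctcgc
Atp5g3: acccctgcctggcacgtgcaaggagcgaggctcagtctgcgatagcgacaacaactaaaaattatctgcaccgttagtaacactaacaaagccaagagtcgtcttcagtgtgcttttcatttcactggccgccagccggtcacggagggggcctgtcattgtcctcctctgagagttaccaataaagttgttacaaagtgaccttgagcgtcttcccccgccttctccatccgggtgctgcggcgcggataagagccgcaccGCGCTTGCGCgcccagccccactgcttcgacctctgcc
Cox7a2l: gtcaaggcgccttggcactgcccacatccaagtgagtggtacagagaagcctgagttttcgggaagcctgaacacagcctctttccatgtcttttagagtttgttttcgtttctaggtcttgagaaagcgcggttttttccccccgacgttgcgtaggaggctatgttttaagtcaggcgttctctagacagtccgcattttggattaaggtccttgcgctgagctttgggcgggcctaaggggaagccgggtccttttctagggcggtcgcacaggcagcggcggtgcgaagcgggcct

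The Sdhd window holds the NRF1 and the ETS letters, the Atp5g2 and Atp5g3 windows hold the NRF1 letters, and the Atp5g1 and Cox7a2l windows hold none of the 3 motifs. Windows were found for 73 of the 86 genes. The NRF1 core occurred in 18 of the 73 (24.7%), beside 7.17% of 17491 protein-coding genes. CCGGAAG occurred in 17 (23.3%, beside 12.9%) and AAGATGGCG in 8 (11.0%, beside 2.14%), and 37 of the 73 (50.7%) held at least 1 of the 3, beside 20.0% of protein-coding genes. By response, the NRF1 letters were in 4 of 14 windows of genes that rose, 1 of 21 of genes that fell and 13 of 38 of genes that did not pass. The strict form of the NRF1 core, with every base set and contained in the looser one, was in 6 of the 73 windows (8.22%, beside 1.47%). These are matches of letters within the windows and no measure of binding.

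Complex III, cytochrome bc1, had 7 measured nuclear genes among the 86, which leave out Cyc1, and of these 2 rose and 2 fell (3 and 0 with aligned medians, 1 and 2 as deposited). Uqcrfs1, the Rieske iron-sulphur protein that takes electrons from ubiquinol, stood at 7.22, 7.19 and 7.13 on D3.5 and at 7.63, 7.62 and 7.64 on D4.5. The spread within each day was small beside the difference (0.45 ± 0.06, adjusted p = 0.00137), and the gene passed under all 3 scalings. Uqcrc2, a core protein, rose by 0.27 ± 0.08, without a call in the intensities as deposited (0.09). Its level averages 2 unlike rows. On D3.5 they lay at 5.41 to 5.71 and at 10.43 to 10.58, and on D4.5 at 5.83 to 5.90 and at 10.68 to 10.88. The lower row was under the receptor level on both days. The small subunit genes Uqcr, now Uqcr11 (-0.40 ± 0.07), and Uqcrb (-0.38 ± 0.12) fell, both without a call with aligned medians (-0.02 and 0.11), and Uqcrb also without D3.5 replicate 1 (-0.27). Uqcrh, the hinge protein that contacts cytochrome c1, did not pass (-0.49 ± 0.26). Its D3.5 values were 9.06, 10.19 and 10.01, beside 9.25, 9.27 and 9.27 on D4.5. Without D3.5 replicate 1 it passed with -0.84 (adjusted p = 0.000547). Uqcrc1 and Uqcrq did not pass.

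Complex IV, cytochrome c oxidase, had 18 measured genes among the 86, of which none rose and 5 fell (3 higher and 4 lower with aligned medians, 0 and 8 as deposited). The 10 general nuclear subunits among the 86 (Cox5a, Cox5b, Cox6a1, Cox6b1, Cox6c, Cox7a2, Cox7b, Cox7c, Cox8a and Ndufa4, which is named after complex I but belongs to complex IV) failed to pass, with changes between -0.32 and 0.21. Across all genes 44.4% passed. Cox4i1, a general subunit that the symbol pattern leaves out, fell (-0.52 ± 0.08, but -0.07 and no call with aligned medians). With aligned medians 3 of the 10 passed as higher, namely Cox6a1 (0.61), Cox7b (0.70) and Ndufa4 (0.61). In the intensities as deposited Cox5a passed as lower (-0.29). Without D3.5 replicate 1 Cox6a1 passed as higher (0.22), and Cox7a2 (-0.36) and Cox6c (-0.20) as lower.

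The gene with the largest fall of all 86 was Cox7a2l, which encodes a protein that joins complexes III and IV into a supercomplex and is known to differ between inbred mouse strains, C57BL/6 among them. It stood at 8.78, 8.92 and 8.77 on D3.5 and at 7.64, 7.54 and 7.68 on D4.5. The days were separated by over 1 log2 unit, a 2.30-fold fall (-1.20 ± 0.08, adjusted p = 4.43e-05). The gene had 2 rows, and on each the D3.5 values (8.36 to 9.21) lay above all D4.5 values of both (7.48 to 7.87). The change was -0.89 with aligned medians and -1.31 in the intensities as deposited. Its general paralogue Cox7a2 did not pass (-0.23 ± 0.13), with 8.62, 9.13 and 8.86 on D3.5 and 8.60, 8.65 and 8.67 on D4.5.

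Of 7 isoforms of complex IV that are used mainly in other tissues or conditions, 4 fell and 3 did not pass. Cox6a2 and Cox8c exceeded the receptor level on both days, and the other 5 did not on at least 1 day. The muscle isoform Cox7a1 read 6.77, 6.55 and 6.76 on D3.5 and 6.09, 5.98 and 5.98 on D4.5 (-0.68 ± 0.08, adjusted p = 0.00084), at the receptor level on D4.5. The muscle isoforms Cox6a2 (-0.37 ± 0.11) and Cox8b (-0.34 ± 0.07) and the testis isoform Cox6b2 (-0.42 ± 0.10) also fell. Cox8b did not exceed the receptor genes on either day, nor did Cox6b2 on D4.5, and Cox6a2 lost its call with aligned medians and in 5 of the 6 fits without 1 array. Changes of 95% of 1325 chemosensory receptor genes lay between -0.59 and 0.33, and 29.9% of these genes passed the test, and of these 4 falls only that of Cox7a1 lay outside that range. The testis isoforms Cox7b2 (0.06 ± 0.09) and Cox8c (-0.22 ± 0.13), and Ndufa4l2 (-0.06 ± 0.09), a paralogue of Ndufa4 known to be induced by low oxygen, did not pass.

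Complex V, the ATP synthase, had 16 measured genes among the 86, which leave out Usmg5, and of these 4 rose and 3 fell (9 and 1 with aligned medians, 5 and 4 as deposited). In the F1 head, where ATP is made, Atp5a1, the alpha subunit, rose from 10.34, 10.27 and 10.19 to 10.84, 10.83 and 10.88 (0.58 ± 0.07, adjusted p = 0.000651). Atp5b, the catalytic beta subunit, rose from 11.54, 11.26 and 11.28 to 11.76, 11.79 and 11.86 (0.44 ± 0.09, adjusted p = 0.00741). Neither gene showed any overlap between the days, and both passed under all 3 scalings. The central stalk subunits of the same head, Atp5c1 (gamma, 0.03 ± 0.08), Atp5d (delta, 0.22 ± 0.19) and Atp5e (epsilon, 0.14 ± 0.07), did not pass.

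The c subunit, which forms the rotating ring in the membrane, is encoded by Atp5g1, Atp5g2 and Atp5g3, whose precursors are known to differ in the import sequence and to give the same mature protein. Atp5g1 rose from 10.18, 10.44 and 10.17 to 11.00, 10.63 and 11.00 (0.62 ± 0.13, adjusted p = 0.00701). Atp5g3 rose by less, from 9.96, 9.99 and 9.98 to 10.16, 10.21 and 10.27 (0.24 ± 0.06, adjusted p = 0.0222), and its call was lost in 4 of the 6 fits without 1 array. Atp5g2 stood at 9.99, 10.46 and 10.43 on D3.5 and at 10.38, 10.49 and 10.41 on D4.5 and did not pass (0.13 ± 0.13). Apart from D3.5 replicate 1 its days overlapped, with a change of -0.02 without that array. Whether the 3 changes differ from each other was not tested.

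Of subunits e, f and g, which lie in the membrane where ATP synthases meet in pairs, 2 of 3 fell, but only Atp5l did so under all 3 scalings. Atp5l, subunit g, fell from 8.36, 8.36 and 8.19 to 7.71, 7.64 and 7.63 (-0.64 ± 0.08, adjusted p = 0.000685). It had 6 rows, and their lowest D3.5 value (7.96) lay above their highest D4.5 value (7.88). Atp5j2, subunit f, fell by 0.29 ± 0.07 on the log2 scale (adjusted p = 0.0178), without a call under either other scaling, and Atp5k, subunit e, did not pass (-0.18 ± 0.09). In the peripheral stalk, which holds the head still, Atp5f1, the b subunit now called Atp5pb, fell (-0.24 ± 0.07, no call under either other scaling), while Atp5h (0.22 ± 0.17), Atp5j (0.29 ± 0.10) and Atp5o (0.19 ± 0.10) did not pass. Atp5s, coupling factor B, now Dmac2l, did not pass (-0.03 ± 0.07).

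**Figure D3:**
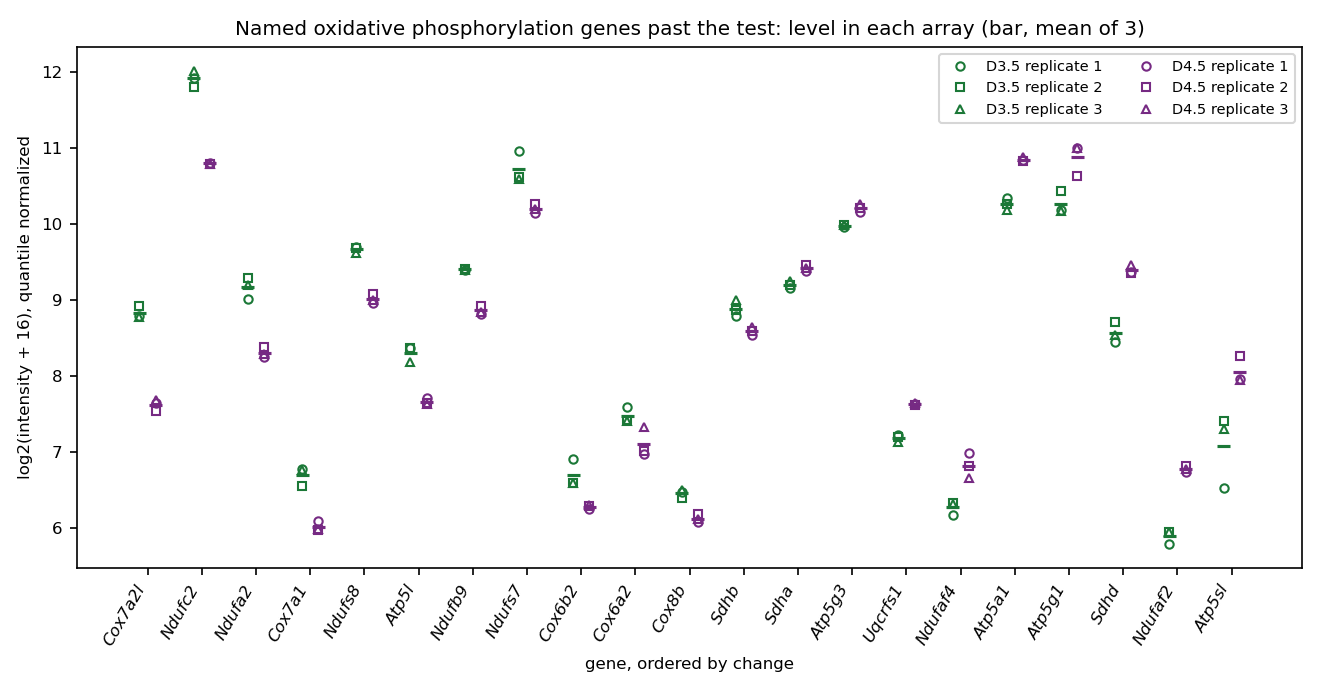
Level on each array, as log2(intensity + 16) after quantile normalization, for the 21 named genes that passed the test, ordered by change. Green symbols are the 3 D3.5 arrays, purple symbols the 3 D4.5 arrays, and bars are their means. The days do not overlap for any of these genes, but the naming rule required this of those named for the size of their change. How often the days separate over all genes was not computed. The widest spread is that of Atp5sl on D3.5.

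One array stood apart for part of the set. D3.5 replicate 1 lay at least 0.5 below both other D3.5 arrays for 10 of the 86 genes, beside 2.84% of all genes, and by that much above them for none of the 86, beside 1.18%. The 10 genes came from every complex and were Sdhc, Uqcrh, Ndufa9, Cox6b1, Ndufb6, Atp5sl, Atp5d, Cox7c, Atp5h and Uqcrq, named after their values were seen. For Cox6b1 the D3.5 values were 9.12, 10.16 and 10.06, beside 9.93, 10.02 and 9.87 on D4.5, so that replicate 1 was the lowest of the 6 arrays and the other D3.5 arrays lay just above those of D4.5. Ndufa9, which stood at 7.10, 8.05 and 8.18 on D3.5 and at 8.37, 8.50 and 8.58 on D4.5, did not pass (0.70 ± 0.26) but passed without that array with 0.37 (adjusted p = 0.016). Without it 18 of the 86 genes rose (18.7% of all genes) and 28 fell (26.4%), beside 16 and 25 with it. The array also had the lowest weight of the 6 when limma estimated array weights (0.247, the others 0.708 to 2.92).

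**Figure D4:**
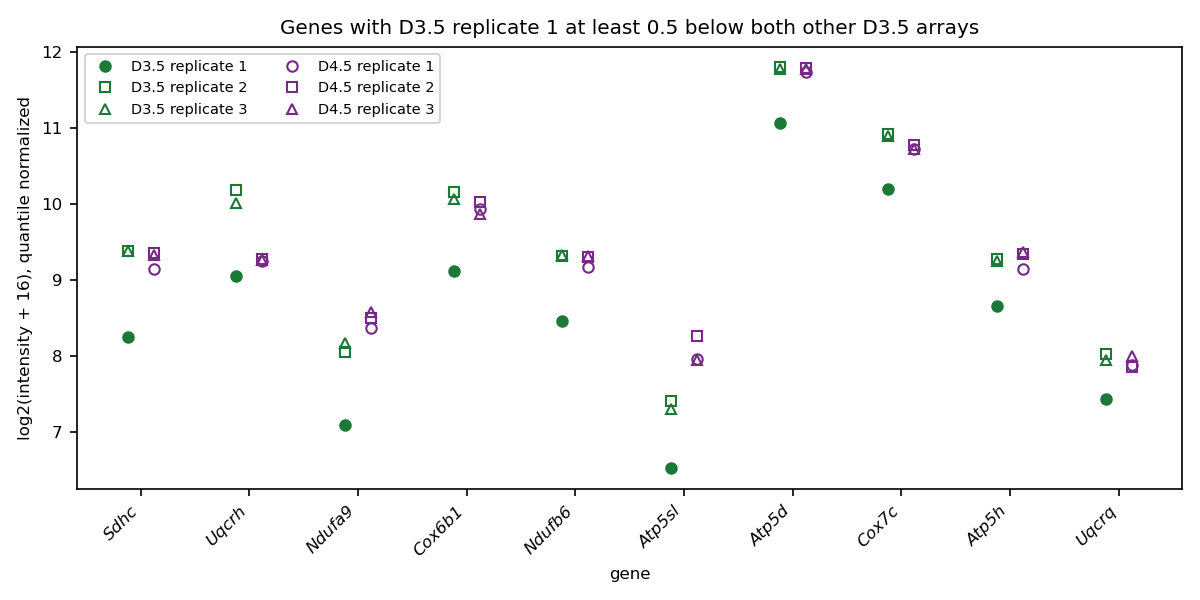
Level on each array, as log2(intensity + 16) after quantile normalization, for the 10 genes with D3.5 replicate 1 (filled green circle) at least 0.5 below the other D3.5 arrays (open green symbols). The open green symbols lie below all D4.5 arrays (purple) for Atp5sl and Ndufa9, above all of them for Uqcrh, Sdhc, Cox7c and Cox6b1, and among or beside them for the other 4.

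Genes that serve the complexes were read from lists written with earlier results of these data known. Of 29 measured assembly factors of complexes I to V, 4 of which are among the 86, 8 rose and 6 fell (10 and 1 with aligned medians, 2 and 14 as deposited). Bcs1l, which inserts the Rieske protein into complex III, fell by 0.75 ± 0.07 on the log2 scale (adjusted p = 0.000284), the opposite direction to the Rieske gene Uqcrfs1. Of the 7 subunits and carriers that the symbol pattern leaves out, 2 rose and 2 fell (4 and 0 with aligned medians, 2 and 3 as deposited). Usmg5, a small subunit of the ATP synthase (0.93 ± 0.08), and Cyc1, cytochrome c1 of complex III (0.60 ± 0.07), were higher under all 3 scalings. Cox4i1, a general subunit of complex IV, was lower (-0.52 ± 0.08, but -0.07 and no call with aligned medians). Cycs, cytochrome c itself, did not pass (0.03 ± 0.09). Of 9 measured mitochondrially encoded subunits 2 rose and none fell (8 and 0 with aligned medians, 3 and 0 as deposited). ATP6 changed by 0.73 ± 0.18 and ND2 by 0.20 ± 0.07 (no call in the intensities as deposited), and 6 of the other 7 changed by between -0.19 and 0.16. ND6 spread widely on D3.5 (8.23 ± 1.20) and did not pass.

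In the citric acid cycle list 10 of 24 genes rose and 5 fell (17 and 3 with aligned medians, 7 and 6 as deposited), with Pdhb, the beta subunit of pyruvate dehydrogenase, at -1.69 ± 0.13 and Pdk4, a kinase that switches that enzyme off, at 1.05 ± 0.09. Of other kinases of the same enzyme, Pdk3 fell by 1.37 ± 0.13 on the log2 scale, under all 3 scalings. Pdk2 fell by 0.58 ± 0.10, without a call with aligned medians, and Pdk1 did not pass (0.04 ± 0.11). Of the genes for phosphatases of the same enzyme, Pdp2 fell (-1.45 ± 0.14) under all 3 scalings. Pdp1 rose (0.33 ± 0.10), without a call in the intensities as deposited. Other subunit genes of the enzyme went the opposite way to Pdhb. Dlat rose by 0.46 ± 0.07 under all 3 scalings, and Pdha1 (0.36 ± 0.08) and Pdhx (0.34 ± 0.11) rose without a call in the intensities as deposited. Dld did not pass (-0.06 ± 0.09). Among the isocitrate dehydrogenase genes of the list, Idh2 (1.47 ± 0.16) and Idh3a (1.09 ± 0.10) rose under all 3 scalings. The citrate synthase gene Cs fell (-0.55 ± 0.07), without a call with aligned medians (-0.02). Regulators of mitochondrial gene expression also moved both ways (7 of 26 rose and 6 fell, 11 and 3 with aligned medians, 5 and 13 as deposited). Ppargc1a (0.92 ± 0.16) and Pprc1 (1.10 ± 0.09), coactivators of respiratory genes, and Tfam (0.50 ± 0.10), which packages mitochondrial DNA, rose, Tfam without a call in the intensities as deposited. Tfb1m, a methyltransferase of mitochondrial ribosomal RNA (-1.03 ± 0.10), Top1mt, a mitochondrial topoisomerase (-0.92 ± 0.08), and Esrra, a nuclear receptor known to bind promoters of respiratory genes, (-0.41 ± 0.09, no call with aligned medians), fell. The genes of the factors whose motifs are marked above, Nrf1 (-0.21 ± 0.09) and Gabpa (0.24 ± 0.09), did not pass, nor did Yy1 (0.02 ± 0.12). With aligned medians Gabpa (0.60) and Yy1 (0.50) passed as higher and Nrf1 stood at 0.04, while in the intensities as deposited Nrf1 passed as lower (-0.39). Of 20 genes of ubiquinone synthesis and other electron entry 3 rose and 5 fell (11 and 2 with aligned medians, 1 and 8 as deposited), led by Pdss1 (1.12 ± 0.16) and the choline dehydrogenase gene Chdh (-2.09 ± 0.07). Of 12 genes of ADP and phosphate exchange 4 rose and 3 fell (5 and 2 with aligned medians, 2 and 5 as deposited), among them the channel gene Vdac1 (0.77 ± 0.12) and the mitochondrial creatine kinase gene Ckmt1 (-2.38 ± 0.20). The counts of these lists stand beside 18.0% of all genes that rose and 26.4% that fell. With aligned medians the shares of all genes were 28.0% and 19.6%, and in the intensities as deposited 11.4% and 61.8%.

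None of the 12 luminal epithelial markers was at the receptor level on both days. Their summed normalised intensity lay between 19340 and 22200 on D3.5 and between 16320 and 18770 on D4.5. Stromal markers summed to between 3239 and 5071 on D3.5 and between 2014 and 5997 on D4.5, and none of the 13 passed. Endothelial markers summed to between 962.3 and 1616 and between 684.5 and 1857, and none of the 8 passed. Leukocyte markers summed to 849.3 to 999.2 and 826.3 to 1137, with 5 of 11 at the receptor level on both days, 2 that rose and 4 that fell. Of 8 glandular markers 3 rose and 3 fell, with sums between 875.8 and 1046 on D3.5 and between 917.5 and 1039 on D4.5. Of 8 myometrial markers 1 rose and 2 fell (757.3 to 928.2, then 684.1 to 1018). Of 6 erythrocyte markers 2 fell (529.9 to 1088, then 519.2 to 1008). Of 8 embryo and trophoblast markers, among them Krt8, which the luminal list also holds, 2 fell and 4 were at the receptor level on both days (3431 to 4080, then 3213 to 3483). Of the 12 luminal markers 3 rose and 3 fell. In such bulk samples fewer cells of a type and less RNA per cell cannot be told apart, and a part of cell composition in the changes above was not tested. Subunit genes of these complexes have many processed copies in the mouse genome, and the deposited rows do not say which probes could also read such copies.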

How the data were processed

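The authors deposited a table of linear intensity values, 1 column per array and 1 row per probe set, and a second table that differs on 1 row; the summary software is not given in the sources used here. Rows that share a symbol are not paired between the days: their deviations from the symbol's mean correlated with 0.00 between days and at least 0.94 within a day. Rows of 1 symbol were therefore averaged, and rows without exactly 1 symbol were left out, as was 1 row with values missing. The authors' own comparison columns were not used. Array totals were 8.99e+06 to 1.04e+07, and precision is limited by the number of arrays.

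Values were log2(intensity + 16), quantile normalized over 35556 rows, and fitted with limma 3.58.1 (lmFit, eBayes) in R 4.3.3, two-sided, D4.5 minus D3.5, Benjamini-Hochberg over 21740 genes, with no filter. The fit was also run on simulated independent arrays. These held no scaling difference between the days, no shared equal values and no low array, and so do not bear on those limits. Receptor level means a day's mean no higher than the 95th percentile reached by 1325 chemosensory receptor genes (6.55 on D3.5, 6.37 on D4.5). Alternatives were aligned medians, intensities as deposited, constants of 1 and 64, genes above the median level, the row with the highest mean, genes with 1 row, limma's trended robust variance, weights per array, a block for the replicate number, and leaving out every array in turn.

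Members, lists and rules were chosen with earlier results of these data known. The rule named, per complex, up to 5 rises and 5 falls with no overlap of the days and a change of at least 0.5, the gene with the smallest p where none qualified, the isoform and complex II genes whatever their values, and from other lists up to 2 genes per direction and 8 preset genes, not all of which are printed. Genes named beyond it were chosen after their values were seen. The values of 1 member, which enters the counts and medians, are not reported here. Symbols and promoter windows were matched to RefSeq tables of GRCm38.p6, used for the windows and for current names. Summaries used Python 3.11.15 with pandas 2.3.3, and plots matplotlib 3.10.9.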

Additional observations from a re-analysis of the deposited data

How the results depend on the processing

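By the settings of the report 9651 genes passed, 16 members were higher and 25 lower, and the median member change was -0.05. Aligned medians gave 32 higher, 9 lower and a median of 0.27. In the intensities as deposited 15914 genes passed and the median was -0.16, and among genes above the median level 5771 passed. Leaving out 1 array gave 10 to 18 members higher (10 without D4.5 replicate 2, 18 without D3.5 replicate 1). Sign changes among the 32 named members, none of them past the test under the alternative, were Cox7a2 (0.17), Cox8a (0.35) and Sdhb (0.12) with aligned medians, Cox7b2 (-0.33) in the intensities as deposited, and Cox6b1 (-0.054) with array weights. Without D3.5 replicate 1 the sign also changed for 4 of them, whose values over the 6 fits without 1 array ran from -0.023 to 0.21 (Atp5g2), -0.17 to 0.35 (Cox6b1), -0.11 to 0.0021 (Ndufa4l2) and -0.11 to 0.46 (Sdhc).

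Of 21 named members that passed, 13 kept their direction and call in every alternative in which they were tested: Atp5a1, Atp5g1, Atp5l, Atp5sl, Cox6b2, Cox7a1, Cox7a2l, Cox8b, Ndufa2, Ndufaf2, Ndufc2, Sdhd and Uqcrfs1. For Atp5g1, Atp5l and Cox7a2l, which have several rows, the run on the row with the highest mean is no valid check. It takes a single row, and rows are not paired between the days. Same-numbered arrays of the days did not deviate together (correlations of -0.06, 0.06 and 0.10), so the numbers were not taken as pairs; with the replicate number as a block 8283 genes, 17 members higher and 22 lower passed, and Atp5g3, Cox6a2 and Sdha lost their calls. The causes were not tested.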
